A study of Mus musculus with 9 samples.

Results

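A set of 9 genes of the p53 and FoxO stress response was followed in sorted bone marrow cells of Spop knockout and wild-type mice, and all 9 were found in both deposited tables, among 37187 genes for LSK cells and 45076 for neutrophils. They were listed by symbol: Trp53 itself, its inhibitor Mdm2, its co-activator Trp53inp1, the cyclins Ccng1 and Ccng2, the sestrins Sesn1 and Sesn3, and the target genes Zmat3 and Phlda3. These genes were selected on their measured levels in these same 9 libraries, above all on the difference between knockout and wild type in LSK cells, so the differences in LSK cells are descriptions, and nothing is read from how many pass a threshold. The neutrophil levels were known as well, so the p-values given for the 9 genes there are no independent support. Spop is the substrate-binding subunit of a cullin-3 ubiquitin ligase, and the series asks how it limits blood formation in inflammation through the adaptor MyD88. The groups were LSK cells of Spop(D/D) mice (2 libraries), called knockout here, LSK cells of Spop(+/+) mice (2 libraries), called wild type, Ly6G-positive neutrophils of knockout mice (3 libraries) and Ly6G-positive neutrophils of wild-type mice (2 libraries). All mice were 4 to 12 weeks old. LSK cells are the marrow fraction with stem cells and multipotent progenitors. The labels do not name the driver of the deletion, the deleted part of Spop or whether each library had its own animal, so p-values measure the spread between libraries.

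The p53 protein is a transcription factor that is kept low by the ubiquitin ligase MDM2 and accumulates after DNA damage and other stress. It then switches on genes for cell cycle arrest, repair, antioxidant defence and death, and MDM2 itself, which closes a feedback loop. FoxO factors are held in the cytoplasm by AKT and, when growth factor signalling is low, induce genes of arrest, autophagy and antioxidant defence. Both pathways are known for guarding the quiescence of blood stem cells. The genes followed here sit where they meet: Ccng1, Sesn1, Zmat3, Phlda3 and Mdm2 are p53 targets, Ccng2 and Sesn3 are FoxO targets, and Trp53inp1 is induced by p53 and family members.

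The libraries held 18827892 to 20264417 counted reads in LSK cells and 21012702 to 27434086 in neutrophils. Levels are given as CPM, read counts relative to the total of the library, scaled by TMM factors that adjust for composition. The factors were 0.945 to 1.07 in LSK libraries. In neutrophils they were 0.621 in the third knockout library, 1.58 in the second wild-type one and 0.924 to 1.09 in the others. Scaling thus raised all CPM of that knockout library and lowered all CPM of that wild-type library, marker sums included. Spop had 312 and 305 CPM in knockout LSK cells, against 380 and 390 CPM in wild-type LSK cells. In neutrophils it had 158, 178 and 210 CPM in knockout, against 135 and 194 CPM in wild type, so the whole transcript does not check these labels. The second knockout LSK library is called neutrophil under cell type but LSK in its title, and Ly6g was at 0 in all 4 LSK libraries. The 10 LSK markers summed to 2707 and 2959 CPM in knockout and to 4884 and 4594 CPM in wild-type LSK libraries. Genes of granulocyte and monocyte precursors summed to 16299 and 19088 CPM in knockout and to 1639 and 2178 CPM in wild-type LSK libraries, and B cell markers to 67.7 and 72.7 CPM in knockout and to 247 and 231 CPM in wild type. Among neutrophil libraries the second wild-type one stood apart in its neutrophil and B cell markers. Its 12 neutrophil markers summed to 38915 CPM, against 231854 to 675290 CPM in knockout and 226643 CPM in wild type 1, while its 10 B cell markers came to 1893 CPM, against 3.31 to 10.6 CPM in knockout and 77.5 CPM in the first wild type. The third knockout neutrophil library held 18199 CPM of red cell genes, against 36.6 and 2.33 CPM in the other knockout libraries and 1723 and 3644 CPM in wild type. The first wild-type neutrophil library differed from knockout too. Of 10 monocyte and macrophage markers, 6 had all knockout libraries below both wild-type ones and 1 had them above. Over all genes tested these shares were 17.5% and 17%. The part of such cells in the neutrophil differences below was not tested.

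The promoters of Trp53, Mdm2, Ccng1 and Sesn1 are shown because each holds a motif of p53 or of FoxO factors. Of the 9 genes, 7 had a RefSeq promoter window of 300 bases (GRCm38.p6, 250 bases before and 50 after the start), with 2 windows for Sesn1 and thus 8 in all. The p53 half-site, which reads the same on both strands, was in 4 of these 8 windows, and GTAAACA (either strand), the core of the FoxO binding motif, was in 2. Over all 32851 windows the half-site was in 8.36% and GTAAACA in 3.65%. A match is a description of the letters and no evidence of binding. In the sequences, each written 5′ to 3′ on the gene's strand, capitals mark these motifs, which did not overlap each other.
Trp53 (chr11:69580109-69580408, plus strand): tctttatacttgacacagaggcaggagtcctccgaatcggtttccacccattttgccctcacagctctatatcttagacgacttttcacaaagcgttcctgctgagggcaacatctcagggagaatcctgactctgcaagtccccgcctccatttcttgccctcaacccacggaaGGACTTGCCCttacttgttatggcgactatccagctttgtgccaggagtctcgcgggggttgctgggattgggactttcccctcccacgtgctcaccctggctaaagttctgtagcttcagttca
Mdm2 (chr10:117710709-117711008, minus strand): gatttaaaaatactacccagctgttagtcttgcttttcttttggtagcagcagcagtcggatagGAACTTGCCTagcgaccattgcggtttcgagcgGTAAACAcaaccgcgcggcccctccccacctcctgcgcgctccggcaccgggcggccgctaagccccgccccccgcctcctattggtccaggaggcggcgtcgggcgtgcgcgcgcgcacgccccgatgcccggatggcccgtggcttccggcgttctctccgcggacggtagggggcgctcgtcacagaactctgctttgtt
Ccng1 (chr11:40755237-40755536, minus strand): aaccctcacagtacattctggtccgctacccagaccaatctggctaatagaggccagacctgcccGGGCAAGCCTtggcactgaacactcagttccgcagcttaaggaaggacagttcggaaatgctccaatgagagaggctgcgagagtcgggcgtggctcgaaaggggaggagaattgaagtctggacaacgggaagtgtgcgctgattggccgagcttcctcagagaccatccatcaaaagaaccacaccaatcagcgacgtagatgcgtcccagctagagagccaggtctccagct
Sesn1, first start (chr10:41810324-41810623, plus strand): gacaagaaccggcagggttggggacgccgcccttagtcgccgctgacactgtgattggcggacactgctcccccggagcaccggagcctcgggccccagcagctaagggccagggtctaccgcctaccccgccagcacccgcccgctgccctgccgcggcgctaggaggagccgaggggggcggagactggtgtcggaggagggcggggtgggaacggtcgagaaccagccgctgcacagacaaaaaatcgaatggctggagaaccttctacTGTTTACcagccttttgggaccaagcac
Sesn1, second start (chr10:41887189-41887488, plus strand): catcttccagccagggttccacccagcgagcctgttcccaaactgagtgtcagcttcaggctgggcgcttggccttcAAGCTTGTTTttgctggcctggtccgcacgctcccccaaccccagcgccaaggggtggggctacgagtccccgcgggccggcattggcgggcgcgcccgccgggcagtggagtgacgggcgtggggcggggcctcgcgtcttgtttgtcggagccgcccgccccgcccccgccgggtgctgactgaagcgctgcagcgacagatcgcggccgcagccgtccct
The half-site began 75 bases before the start in Trp53, 186 in Mdm2, 185 in Ccng1 and 173 at the second start of Sesn1. The FoxO core began 153 bases before the start of Mdm2, and 22 bases after the first start of Sesn1, where it lies on the opposite strand. Neither motif was in the windows of Ccng2, Sesn3 and Phlda3, which says only that these letters are not there.

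Trp53 and its inhibitor differed little in LSK cells. Trp53 (chromosome 11, 69580359 to 69591873, plus strand, GRCm38), which encodes p53, had 307 and 347 CPM in knockout LSK libraries, against 252 and 255 CPM in wild-type LSK libraries. Both knockout libraries lay above both wild-type ones, and the log2 fold change was 0.37 (95% confidence interval 0.16 to 0.57, SE 0.0951). Mdm2 (chromosome 10, 117688875 to 117710758, minus strand), the ligase that removes p53, had 128 and 98.0 CPM in knockout, against 137 and 129 CPM in wild type. The genotypes did not overlap, but the first knockout library lay just under the lower wild-type one. The log2 fold change was -0.23 (SE 0.126, interval -0.51 to 0.05) and became -0.04 without the second knockout library and -0.40 without the first.

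Trp53inp1 (chromosome 4, 11156431 to 11174379, plus strand) showed the widest gap of the 9 in LSK cells. Its product binds p53-modifying kinases and takes part in autophagy. It had 51.6 and 48.6 CPM in knockout LSK libraries, against 158 and 149 CPM in wild-type LSK libraries. The 2 libraries of each genotype lay close together and the genotypes were far apart, 3.06-fold higher in wild type (log2 fold change of knockout over wild type -1.61, SE 0.107, interval -1.84 to -1.38). Set against its regulator within each library, per kilobase of exon, the ratio of Trp53inp1 to Trp53 was 0.105 and 0.0876 in knockout and 0.391 and 0.364 in wild type. In bulk RNA, fewer cells of a type and less of a transcript per cell cannot be told apart, which holds for this and all later differences.

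The cyclins of the G type differed in size. Ccng1 (chromosome 11, 40748552 to 40755311, minus strand), a p53 target whose product brings the phosphatase PP2A to MDM2, had 189 and 176 CPM in knockout LSK libraries and 243 and 214 CPM in wild type. The difference was small but without overlap (log2 fold change -0.33, SE 0.1, interval -0.54 to -0.11). Ccng2 (chromosome 5, 93267257 to 93276231, plus strand), an atypical cyclin that slows the cycle and is induced by FoxO factors, had 101 and 102 CPM in knockout, against 197 and 206 CPM in wild type (log2 fold change -0.99, SE 0.0961, interval -1.20 to -0.78). Per kilobase, Ccng1 thus exceeded Ccng2 by 2.90 and 2.68 times in knockout and by 1.92 and 1.61 times in wild-type LSK libraries.

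The sestrins, which bind GATOR2 and so restrain the kinase mTORC1, were both lower in knockout LSK cells. Sesn1 (chromosome 10, 41809935 to 41908424, plus strand), a target of p53 and of FoxO factors, had 131 and 144 CPM in knockout, against 328 and 309 CPM in wild type. That gap was the second widest of the 9 in LSK cells (log2 fold change -1.21, SE 0.0968, interval -1.42 to -1.0). Sesn3 (chromosome 9, 14275067 to 14333101, plus strand), the FoxO-induced sestrin, was scarce, with 83 and 102 reads (4.32 and 5.42 CPM) in knockout and 183 and 166 reads (9.28 and 7.78 CPM) in wild type (log2 fold change -0.81, SE 0.271, interval -1.39 to -0.22). Sesn2, the sestrin outside the list of 9, which responds to amino acid and ER stress as well as to p53, had 21.1 and 21.7 CPM in knockout and 19.7 and 22.7 CPM in wild type (log2 fold change 0.02, SE 0.172, adjusted p = 0.952). Its genotypes overlapped.

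Of the remaining p53 targets, Phlda3 (chromosome 1, 135766119 to 135769136, plus strand) encodes a PH-domain protein that competes with AKT at the membrane. It had 7.03 and 7.02 CPM in knockout LSK libraries and 15.2 and 11.3 CPM in wild type (log2 fold change -0.92, SE 0.236, interval -1.43 to -0.41). Zmat3 (chromosome 3, 32334792 to 32366014, minus strand), a zinc finger protein that binds RNA, rested on 23 and 31 reads in knockout and 47 and 45 reads in wild type. Its log2 fold change was -0.66 with an interval of -1.68 to 0.36, so its size is poorly fixed at this depth, and without the first knockout library it was -0.40.

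**Figure D1:**
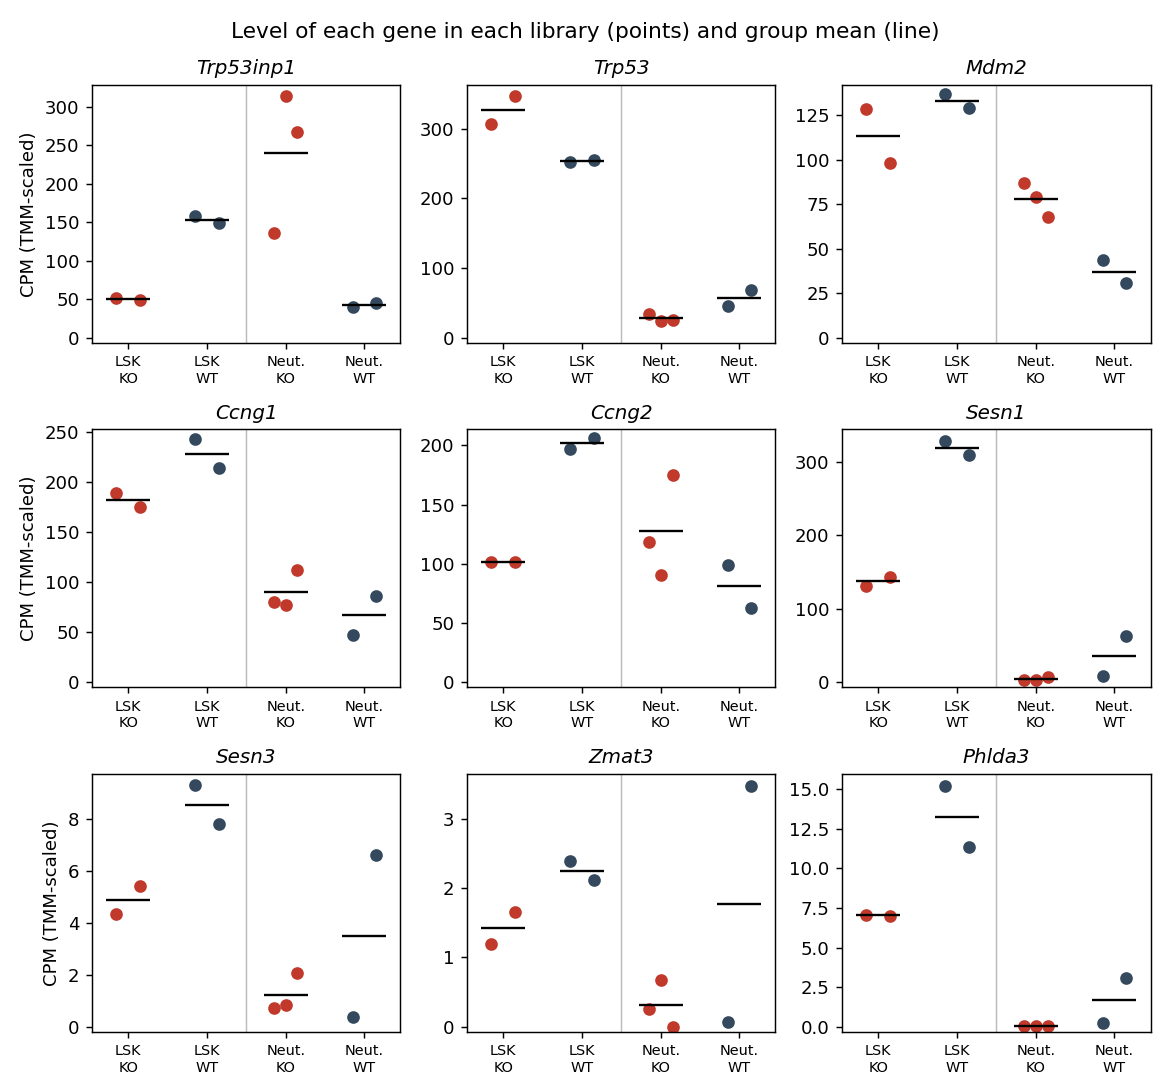
TMM-scaled CPM of the 9 genes in every library (points) with the mean of each group (line), knockout left of wild type within LSK cells and within neutrophils, on an axis of its own for each gene that starts at 0. In LSK cells Trp53inp1 sits at 48.6 and 51.6 CPM in knockout and at 149 and 158 CPM in wild type, while in neutrophils it sits at 136 to 315 CPM in knockout and at 39.3 and 45.1 CPM in wild type.

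In LSK cells 8 of the 9 genes had both knockout libraries below both wild-type libraries, and 1, Trp53, had them above. Over the 13008 genes tested, 38.3% lay wholly below and 34.6% wholly above. In the fit over all genes, 7 of the 9 passed an adjusted p of 0.05 (1 higher, 6 lower; edgeR), where 21% of all genes passed as higher, 21.2% as lower and 42.2% in either direction, and 50.1% had an unadjusted p under 0.05. Since the list was drawn up with these differences known, nothing is read from that count. It came to 3 without the first wild-type library (Trp53inp1, Ccng2 and Sesn1) and to 5 without the second (these and Ccng1 and Phlda3). The knockout libraries also held more reads of granulocyte and monocyte precursor genes and fewer of LSK and B cell markers, with the sums given above. Of the 10 LSK markers 8 passed as lower and 1, Ly6a, as higher. Of 10 red cell genes 7 passed as lower and 0 as higher, and of 7 megakaryocyte genes 5 as lower and 1 as higher. The neutrophil markers, with Ly6g at 0, summed to 2900 and 3188 CPM in knockout and to 154 and 289 CPM in wild-type LSK libraries. Most of that sum was Elane, which is also in the precursor list (2736 and 3084 CPM in knockout, 116 and 239 CPM in wild type), and of the 10 markers tested 4 were higher (Elane, Cxcr2, Mmp8 and Lcn2) and 2 lower (Ngp and Ltf). The part of these cell types in the differences of the 9 genes was not tested. The median log2 fold change of the 9 was -0.81, against -0.03 over all genes. Nothing is read from that gap either, since the genes were selected on these differences. With upper-quartile scaling the median over all genes moved to -0.12, and 39.0% of the passing genes were higher in knockout, against 49.8% with TMM; Mdm2 then passed as well, as lower.

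Because levels of different genes can be set side by side only per length, CPM were divided by the kilobases of merged exons. In knockout LSK cells Trp53 led with 80.8 CPM per kilobase, then came Ccng1 (51.9), Sesn1 (34.5), Mdm2 (22.3), Ccng2 (18.6), Trp53inp1 (7.74), Phlda3 (4.51), Sesn3 (0.319) and Zmat3 (0.124). In wild-type LSK cells Sesn1 led with 79.9 CPM per kilobase, followed by Ccng1 (65.0), Trp53 (62.7), Ccng2 (37.0), Mdm2 (26.1), Trp53inp1 (23.7), Phlda3 (8.52), Sesn3 (0.559) and Zmat3 (0.196). Sesn1 thus stood in the third place in knockout and in the first in wild type. Among neighbours in these orders, the ranges of the 2 libraries overlapped for Ccng1 and Trp53 in wild type.

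In neutrophils the gap of Trp53inp1 ran the other way. It had 136, 315 and 268 CPM in knockout neutrophil libraries, against 39.3 and 45.1 CPM in wild-type ones, a mean of 240 ± 92.3 (SD, n = 3) against 42.2 ± 4.11 (SD, n = 2). All knockout libraries lay above both wild-type libraries, the first knockout library least so. The fitted difference was 5.67-fold (log2 fold change 2.50, SE 0.523, interval 1.27 to 3.74), which did not pass after adjustment over all 12836 genes (adjusted p = 0.207, edgeR). With DESeq2 it passed (adjusted p = 8.35e-05), as it did in edgeR without the filter on low counts (0.0192). Over the alternatives the adjusted p ran from 8.35e-05 to 0.539, while the log2 fold change stayed between 2.24 and 2.76. Without the second wild-type library, the one rich in B cell markers, it was 2.57. In this comparison edgeR called 0 of all genes (0%) at an adjusted p of 0.05, and 1787 (13.9%) had an unadjusted p under 0.05, while DESeq2 called 278 as higher and 613 as lower.

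Mdm2 and Trp53 also separated the genotypes in neutrophils, in opposite directions. Mdm2 had 86.6, 78.9 and 68.0 CPM in knockout neutrophils, against 43.9 and 30.4 CPM in wild type (log2 fold change 1.07 with an interval of 0.20 to 1.94, SE 0.368, adjusted p = 0.276, edgeR). Trp53 had 33.4, 23.9 and 26.0 CPM in knockout, against 45.1 and 68.5 CPM in wild type (log2 fold change -1.03, SE 0.368, adjusted p = 0.289). Neither passed. Per kilobase, the ratio of Mdm2 to Trp53 was 2.06, 2.63 and 2.08 in knockout neutrophils and 0.774 and 0.354 in wild-type neutrophils. In LSK cells that ratio was 0.333 and 0.225 in knockout and 0.431 and 0.402 in wild type. All knockout libraries lay above all wild-type libraries at 17% of genes tested in neutrophils and below them at 17.5%. Of the 9 genes, 2 lay wholly above (Trp53inp1 and Mdm2) and 3 wholly below (Trp53, Sesn1 and Phlda3). Nothing is read from these counts, since the genes were selected on their levels.

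Of the cyclins, Ccng1 had 80.4, 77.3 and 112 CPM in knockout neutrophils and 46.9 and 86.6 CPM in wild type (log2 fold change 0.43, interval -0.58 to 1.44, adjusted p = 0.682). Ccng2 had 118, 90.2 and 175 CPM in knockout and 99.1 and 63.1 CPM in wild type (log2 fold change 0.66, interval -0.42 to 1.73, adjusted p = 0.559). The genotypes overlapped for both. Without the first wild-type library the log2 fold change was 0.11 for Ccng1 and 1.07 for Ccng2, and without the second it was 0.91 for Ccng1 and 0.34 for Ccng2. Without the third knockout library it was 0.23 for Ccng1 and 0.36 for Ccng2.

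The other 4 genes were highest in the second wild-type library and had at most 8.38 CPM in the other neutrophil libraries. Sesn1 had 2.51, 3.04 and 7.02 CPM in knockout, against 8.38 and 63.2 CPM in wild type (log2 fold change -3.10, SE 0.860, adjusted p = 0.222, edgeR; adjusted p = 0.0121 with DESeq2, 0.0344 without the first wild-type library, and 0.0121 to 0.661 over all alternatives). Sesn3 had 0.727, 0.828 and 2.08 CPM in knockout, against 0.391 and 6.61 CPM in wild type. Zmat3 had 7, 17 and 0 reads in knockout, against 2 and 115 reads in wild type, and Phlda3 had 2, 1 and 1 reads in knockout, against 7 and 102 reads in wild type. Phlda3 did not reach the filter of the test, and its knockout libraries were under the floor of 3 reads. Without the second wild-type library the log2 fold change of Sesn1 was -1.04, while those of Sesn3 and Zmat3 turned to 1.58 and 2.04. That library also carried 1893 CPM of B cell markers and 1248 CPM of T and NK cell markers, while the T and NK cell markers came to 98.3, 41.5 and 134 CPM in knockout and 182 CPM in the first wild type. The part of these cells in the levels of Sesn1, Sesn3, Zmat3 and Phlda3 was not tested.

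**Figure D2:**
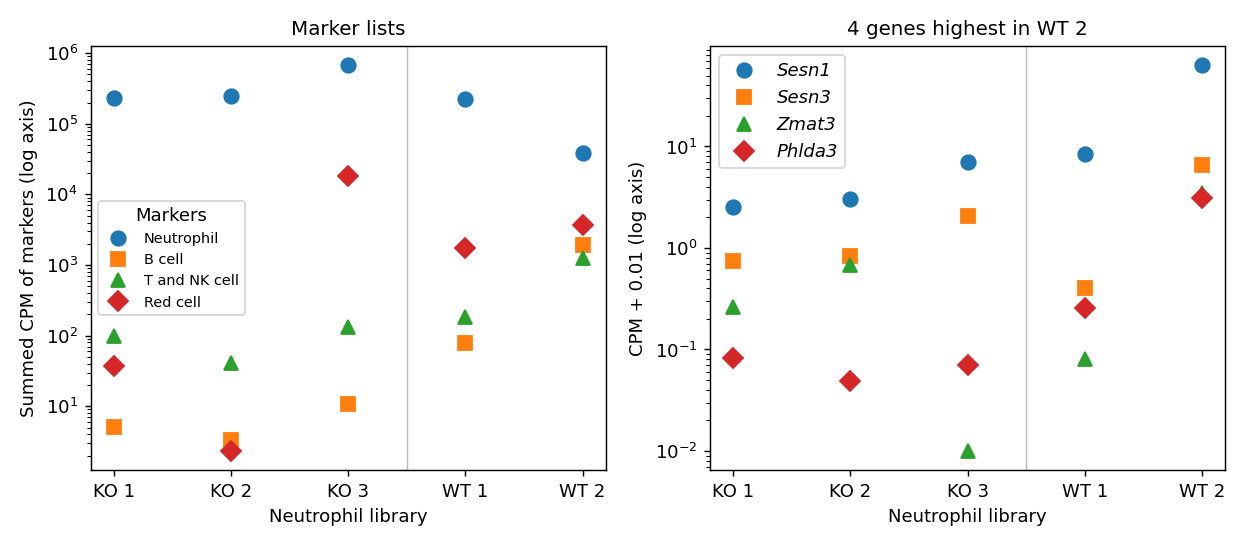
Left, summed CPM of marker genes of neutrophils, B cells, T and NK cells and red cells in the 5 neutrophil libraries, on a log axis. Right, CPM plus 0.01 of Sesn1, Sesn3, Zmat3 and Phlda3 in the same libraries, on a log axis; the second wild-type library is highest for all 4 genes, with 63.2 CPM of Sesn1, and it has the most B cell and the fewest neutrophil marker reads.

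Per kilobase, Trp53inp1 led in knockout neutrophils (37.0 CPM per kilobase), ahead of Ccng1 (25.6), Ccng2 (23.4), Mdm2 (15.3), Trp53 (6.86), Sesn1 (1.05), Sesn3 (0.0793), Phlda3 (0.0370) and Zmat3 (0.0270). The ranges of the first 4 overlapped from each to the next, as did those of Phlda3 and Zmat3. In wild-type neutrophils the order was Ccng1 (19.0), Ccng2 (14.9), Trp53 (14.0), Sesn1 (8.99), Mdm2 (7.31), Trp53inp1 (6.52), Phlda3 (1.07), Sesn3 (0.229) and Zmat3 (0.155), with overlap between all neighbours except Trp53inp1 and Phlda3. The tables of the populations were normalized apart, so no test was run between them.

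**Figure D3:**
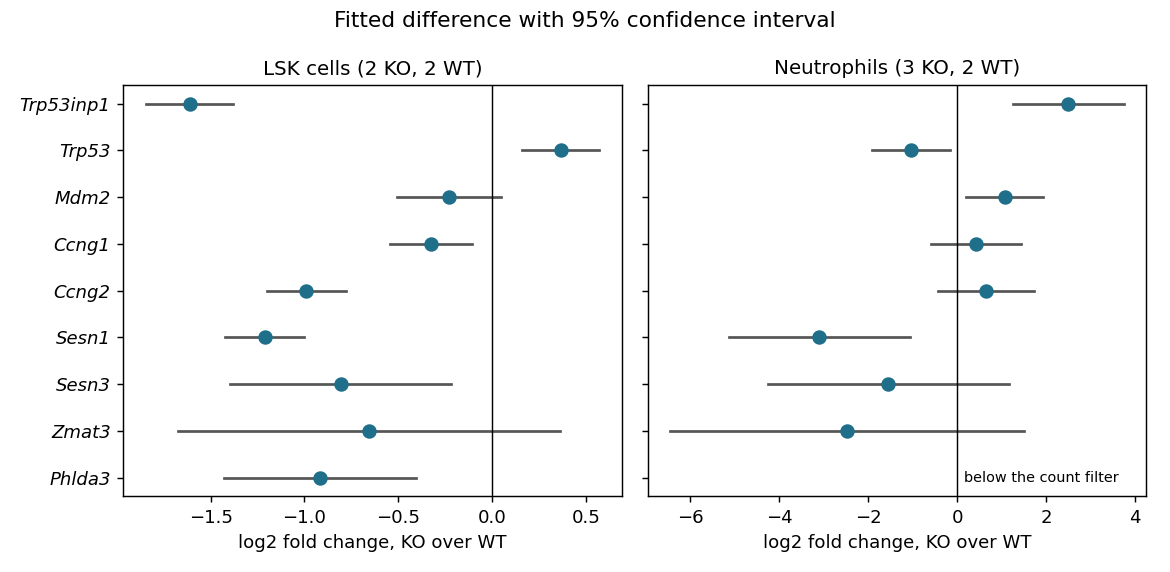
Fitted log2 fold change of knockout over wild type (point) with its 95% confidence interval (line) for the 9 genes, in LSK cells on the left and in neutrophils on the right, on separate axes. Trp53inp1 lies at -1.61 in LSK cells and at 2.50 in neutrophils; Phlda3 has no value in neutrophils because it was below the count filter.

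The wider p53 target list, 34 genes without the 9, did not move one way in LSK cells. This list and those below were chosen with earlier results of these data known, so their counts and medians are descriptions. In knockout 5 rose and 9 fell (14.7% and 26.5% of the genes tested), against 21% and 21.2% of all genes. The median log2 fold change was -0.08, and 0.00 without the second knockout library. Pmaip1, which encodes the death-promoting protein NOXA, rose 10.4-fold, with 38.5 and 31.1 CPM in knockout and 2.99 and 3.70 CPM in wild type (log2 fold change 3.37, SE 0.218, adjusted p = 3.71e-07, edgeR). Tigar, a regulator of glycolysis, rose 4.13-fold (42.8 and 37.3 CPM in knockout, 7.35 and 12.0 CPM in wild type). Trp53i11 fell to 60.0 and 50.8 CPM in knockout, against 129 and 135 CPM in wild type, and the tetraspanin gene Cd82 fell to 72.2 and 77.3 CPM, against 146 and 131 CPM. Cdkn1a, the p21 inhibitor of cyclin-dependent kinases and the best known p53 target, had 31.6 and 26.5 CPM in knockout and 36.8 and 29.1 CPM in wild type (log2 fold change -0.18, SE 0.166, adjusted p = 0.402). Of its exon bases 7.68% are shared with an antisense gene, and of those of Foxo1, below, 7.78%; whether the counting used strand is not stated.

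Among regulators of p53 the shares that passed lay below those over all genes: of 17 tested, 3 rose (17.6%, against 21% of all genes) and 2 fell (11.8%, against 21.2%). The checkpoint kinase gene Chek1, which is also an S phase gene, rose 2.07-fold (82.0 and 73.4 CPM in knockout, 36.3 and 38.7 CPM in wild type, adjusted p = 3.27e-05), and the damage kinase gene Atr rose by less (log2 fold change 0.59). The ubiquitin ligase gene Rchy1 (log2 fold change -0.48) and the acetyltransferase gene Crebbp (-0.52) fell. The calls of Atr and Crebbp were lost without the second wild-type library, and that of Rchy1 without the first. Mdm4, the partner of Mdm2, had 27.4 and 19.3 CPM in knockout and 25.3 and 29.2 CPM in wild type (adjusted p = 0.372).

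Most FoxO targets fell in knockout LSK cells. Of 26 tested, 19 fell (73.1%, against 21.2% of all genes) and 0 rose in edgeR, with a median log2 fold change of -0.72. Since this list too was chosen with earlier results of these data known, that share is a description and no independent support. At an unadjusted p under 0.05, 3 were higher and 19 lower, and DESeq2 called 2 as higher, Cited2 and Atg12, and 18 as lower. Without the first wild-type library 13 fell, and 11 fell under every alternative tried, among them the genes named here. Txnip, an inhibitor of thioredoxin and of glucose uptake, fell to 262 and 298 CPM in knockout, against 1348 and 1266 CPM in wild type (log2 fold change -2.22, SE 0.104, adjusted p = 3.3e-08). Pik3ip1, an inhibitor of PI3K, fell to 159 and 178 CPM, against 405 and 393 CPM in wild type. Ccr7 (4.06 and 3.62 CPM in knockout, 18.9 and 18.4 CPM in wild type) and Il7r (9.95 and 7.07 CPM, against 33.6 and 33.6 CPM) fell as well, and both are receptors of lymphoid cells. B cell markers were lower in the same knockout libraries, all 9 tested of 10, and 8 of 8 genes of granulocyte and monocyte precursors were higher. The part of this shift in cell types in the fall of the FoxO targets was not tested.

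The FoxO, PI3K and AKT genes above the targets passed about as often as all genes. Of 19 tested, 3 rose (15.8%, against 21% of all genes) and 5 fell (26.3%, against 21.2%), and without the first wild-type library 1 rose and 3 fell. Foxo1 and Foxo3 encode the factors themselves. Foxo1 fell to 21.5 and 17.0 CPM in knockout, against 35.3 and 41.9 CPM in wild type (log2 fold change -1.0, SE 0.171, adjusted p = 5.05e-04). Foxo3 fell to 13.8 and 13.1 CPM, against 25.6 and 24.9 CPM in wild type (log2 fold change -0.91, adjusted p = 0.00121). Inpp5d, which encodes the lipid phosphatase SHIP1, fell to 315 and 343 CPM, against 451 and 495 CPM in wild type (log2 fold change -0.52). These 3 fell under every alternative tried, but none of the genes that rose (Pik3cb, Pik3cd and Mtor) did so under every one.

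Among partners of the sestrins and G cyclins, most calls depended on the setting. Each list is small, and 21% of all genes rose and 21.2% fell. Of 8 GATOR genes 4 rose, Sec13 (1.64-fold) and Seh1l, which also serve in nuclear pores, Mios and Depdc5, and 0 fell in edgeR (1 was lower at an unadjusted p under 0.05, and 0 by DESeq2). With upper-quartile scaling 2 rose and 1 fell, and without either wild-type library 2 rose, Sec13 and Seh1l, as also without the second knockout library. Of 9 partners of cyclin G, 4 rose, all subunits of PP2A, among them Ppp2r5d (1.55-fold), and 0 fell in edgeR (0 at an unadjusted p under 0.05 and 0 by DESeq2), while upper-quartile scaling gave 1 that rose and 2 that fell, and without either wild-type library 1 rose, Ppp2r5d. Of 8 tested paralogues of the 9 genes 0 rose in edgeR (0 at an unadjusted p under 0.05), and Phlda2 fell to 2.76 and 2.76 CPM in knockout, against 6.94 and 5.30 CPM in wild type. That call was lost without the first wild-type library.

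**Figure D4:**
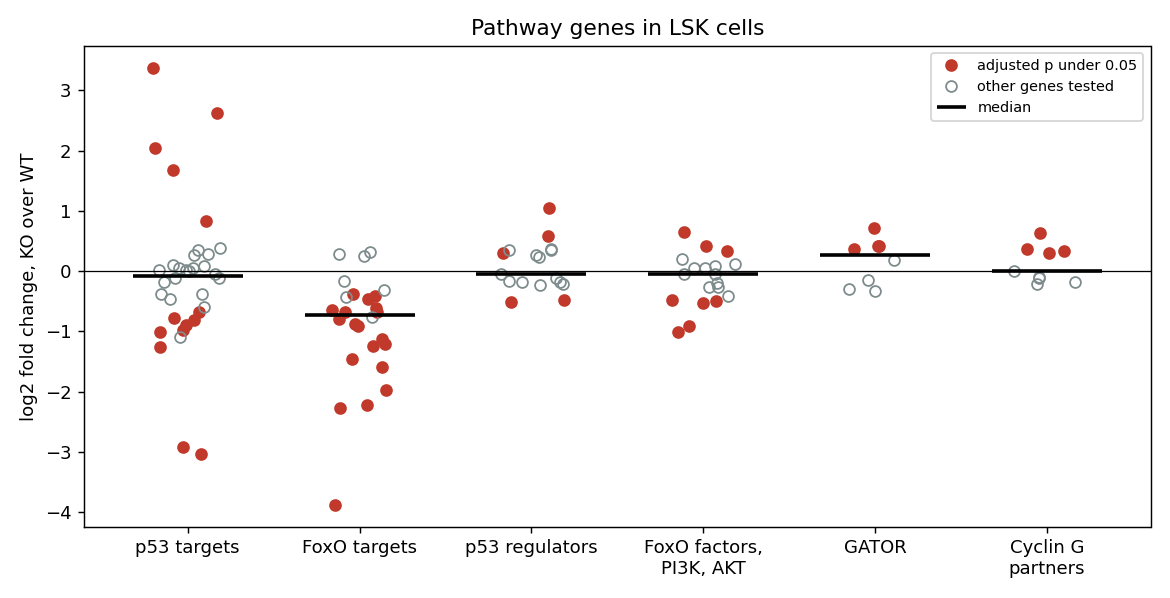
Fitted log2 fold change of knockout over wild type in LSK cells for each tested gene of 6 lists that leave out the 9 genes (filled points, adjusted p under 0.05; open points, the other genes tested; bar, median of the list). FoxO targets lie mostly below 0, with a median of -0.72, while p53 targets spread to both sides, with a median of -0.08. The lists were chosen with earlier results of these data known.

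In neutrophils 0 genes of these lists passed in edgeR. Of 30 tested p53 targets, 1 was higher and 3 were lower at an unadjusted p under 0.05, and DESeq2 called 0 as higher and 2 as lower. Over all 12836 genes 13.9% were past that limit in either direction, and DESeq2 called 278 as higher and 613 as lower. Of 24 tested FoxO targets, 2 were higher and 4 lower at that limit, and DESeq2 called 0 as higher and 4 as lower. The median log2 fold change was 0.02 for p53 targets and 0.43 for FoxO targets, against 0.02 over all genes. Single libraries moved both: leaving out each in turn gave -0.09 to 0.15 for p53 targets and 0.05 to 0.56 for FoxO targets. The median of FoxO targets was 0.05 without the first wild-type library and 0.56 without the second. It was 0.45 without the first knockout library, 0.18 without the second and 0.14 without the third. Some of the genes with the smallest p were high in the second wild-type library alone. Ephx1 had 0.0364, 0 and 0.183 CPM in knockout and 1.10 and 56.7 CPM in wild type. Il7r had 0.109, 0.355 and 0.794 CPM in knockout and 2.52 and 45.9 CPM in wild type. The p53 target Dcxr was higher in both wild-type libraries, with 2.91, 1.62 and 3.60 CPM in knockout and 9.13 and 19.8 CPM in wild type. Its log2 fold change was -2.42 (adjusted p = 0.216, edgeR). Sesn2 had 70.4, 74.9 and 69.9 CPM in knockout neutrophils, against 39.5 and 29.8 CPM in wild type (log2 fold change 1.05, adjusted p = 0.259). Foxo1 had 1.49, 6.90 and 0.0611 CPM in knockout and 4.65 and 68.6 CPM in wild type, and Foxo3 had 14.0, 17.6 and 12.3 CPM in knockout and 12.5 and 5.19 CPM in wild type.

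The genes whose pattern was nearest to that of Trp53inp1 over the 9 libraries were sought by the root mean square distance of log2 CPM, each gene centred on its mean within each population. Among 10382 genes the nearest were Tm4sf1 (distance 0.173), Oas1b (0.367), Dip2c (0.373), Ovol1 (0.381) and Med12l (0.415). All 5 averaged under 20 CPM in each of the 4 groups, Tm4sf1 for example 0.263 CPM in knockout and 1.13 CPM in wild-type LSK cells, and 7.60 CPM in knockout and 1.28 CPM in wild-type neutrophils. Of the other genes of the list, Mdm2 was the nearest at 0.782.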

How the data were processed

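RNA of sorted LSK cells and neutrophils was sequenced after RNeasy Micro extraction and SMART-Seq v4 amplification, per the labels. The authors deposited raw read counts per gene and a normalized signal per gene for each population. Per the submitters' processing notes, the tools included STAR, featureCounts, DESeq2 and bcl2fastq and the builds were GRCm38 and mm10; settings, annotation and strand are not stated. The deposited normalized signal equals the count divided by 1 factor per library, within 0.1% for at least 99.89% of values compared. The 9 genes and the wider gene lists were chosen with earlier results of these data known.

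Counts were fitted per population with edgeR 4.0.16 (R 4.3.3; TMM, filterByExpr, quasi-likelihood F test) and p-values adjusted by Benjamini-Hochberg over all genes, with a threshold of 0.05. Every adjusted p and SE comes from edgeR unless DESeq2 1.42.0 is named. SDs are over libraries. A floor of 3 reads corresponds to 0.0905 to 0.183 CPM, and covers counting error only, since the reads carry no molecular identifiers. LSK gene identifiers were matched to symbols by GENCODE M21 (GRCm38), 35412 of 37187. Replicates differed by more than counting noise in every pair. Replicate numbers were not taken as pairs, since no label says that they pair animals. Deviations of libraries with the same number correlated at 0.00393 in LSK cells and at 0.239 and -0.0241 in neutrophils. In a group of 2 libraries the deviations mirror each other, so these values cannot decide whether the numbers are pairs. From each wider list the text names up to 4 genes with the smallest p that passed in LSK cells, up to 2 in neutrophils, and Cdkn1a, Mdm4, Foxo1, Foxo3 and Sesn2 whatever their values. Other genes named, as those behind a count of 5 or fewer, were picked out after their values were seen. Some results are not reported here. The script was tested on simulated data.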

Additional observations from a re-analysis of the deposited data

Results flagged for a closer look

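In 13 of the genes described, every knockout library lay on one side of every wild-type library in LSK cells and on the other side in neutrophils. Nothing is read from that count, since the 9 genes were selected on their levels and the 5 nearest genes on this pattern. In LSK cells Oas1b and Dip2c did not pass (adjusted p = 0.0815 and 0.0531, edgeR), nor did Mdm2, Atm, Sgk1 and Ccni. None passed in neutrophils in edgeR. The difference between populations was not tested. Of 10842 genes tested in both, 609 (5.62%) were wholly lower in knockout LSK cells and higher in knockout neutrophils, and 661 (6.10%) showed the reverse.

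Among the p53 genes, Trp53inp1 had a log2 fold change of knockout over wild type of -1.61 in LSK cells and 2.50 in neutrophils. Trp53 ran the other way, with 0.37 in LSK cells and -1.03 in neutrophils. Mdm2 followed Trp53inp1, at -0.23 in LSK cells and 1.07 in neutrophils. Of the p53 regulators, the ligase gene Rchy1 stood at -0.48 in LSK cells and 1.0 in neutrophils, and the damage kinase gene Atm at 0.35 in LSK cells and -1.93 in neutrophils.

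In the FoxO, GATOR and cyclin lists, the kinase gene Sgk1 stood at -0.26 in LSK cells and 0.99 in neutrophils. Depdc5, a GATOR1 subunit gene, stood at 0.42 in LSK cells and -0.53 in neutrophils, and the cyclin gene Ccni at -0.21 and 0.90. The 5 genes nearest to Trp53inp1 share its pattern by the way they were found: Tm4sf1 stood at -2.07 in LSK cells and 2.56 in neutrophils, Oas1b at -0.97 and 2.55, Dip2c at -0.71 and 3.37, Ovol1 at -2.12 and 2.14, and Med12l at -0.67 and 2.28.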

How the results depend on the processing

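In LSK cells the log2 fold changes of the 9 genes kept their direction under upper-quartile and RLE scaling, DESeq2, no filter on low counts, the replicate block and without each library in turn. Of 81 such values, 79 moved by less than the spread between replicates, taken as the root of the summed variances of both genotypes. Upper-quartile scaling took the other 2 past it, Trp53inp1 to -1.71 and Ccng2 to -1.08. Leaving out 1 of the 2 libraries of a genotype can hardly move a value by more than that spread. The values without a library therefore do not test stability by this measure. Over all genes, leaving out a library gave 1848 to 2902 higher and 1676 to 2816 lower genes. FoxO targets that rose numbered 0 to 2 without a library, and 2 with RLE scaling, DESeq2, no filter and the replicate block. The replicate block gave 2881 higher and 2895 lower genes in LSK cells and called the same number of the 9 genes, 7.

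In neutrophils the count of 0 depended on the setting. Higher and lower genes numbered 278 and 613 with DESeq2, 76 and 258 without the filter, 86 and 248 with the replicate block, and 0 to 207 and 0 to 394 without a library, most without the first wild-type one. p53 targets that fell numbered 2, 1, 2 and 0 to 1 in these settings, and FoxO targets 4 with DESeq2, 2 with the block and 0 to 4 without a library. Without the second wild-type library Sesn3 and Zmat3 reversed to 1.58 and 2.04 (ranges -2.41 to 1.58 and -3.37 to 2.04); the cause was not tested. Where leaving out a library left 1 in an arm, the lone sample was assumed to vary like the others. Without the first wild-type library Phlda3 passed the filter and the test. Upper-quartile scaling moved the neutrophil median over all genes to -0.12, against 0.02. Few reads limit Zmat3 and Phlda3.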

Other observations

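Trp53inp2, the paralogue of Trp53inp1 and a factor of autophagy and transcription, had 302, 198 and 237 CPM in knockout neutrophils and 136 and 14.3 CPM in wild type (log2 fold change 1.71, adjusted p = 0.436, edgeR; 0.83 without the second wild-type library). The wild-type libraries lay far apart, so the size of this difference depends on which of them is kept. Trp53inp2 was picked out after its values were seen.

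Per kilobase, Sesn1 exceeded Sesn3 by 13.2, 14.1 and 13 times in knockout neutrophils and by 82.3 and 36.7 times in wild-type neutrophils. There Sesn3 had only 20, 21 and 34 reads in knockout and 11 reads in the first wild-type library, so these ratios are poorly fixed. The second wild-type library, the one rich in B cell markers, had 219 reads. In LSK cells the ratio of Sesn1 to Sesn3 was 116 and 102 in knockout and 136 and 152 in wild type.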
